A study of Caenorhabditis elegans with 2 samples.

Results

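The homeobox and T-box genes are the 109 protein-coding genes of Caenorhabditis elegans, of 19973 in the Ensembl annotation, that are named ceh- or tbx- or belong to 27 further genes chosen by name, such as the Hox genes and unc-62. They comprise 89 homeobox genes and 20 T-box genes. The name tbx-30 is carried by 2 of the T-box genes. The homeobox name ceh-44 matched no protein-coding gene in the annotation and is therefore in no count or class here. The choice rests on gene names and uses no measured value as a criterion, but it was made with earlier results of these data known. RNA polymerase II was mapped at them by ChIP-seq, the sequencing of DNA fragments pulled down from chromatin, using an antibody to AMA-1, which is the enzyme's largest subunit. The material was whole late embryos of the wild-type strain N2, of pooled male and female sex, with the age given as unknown. Both samples belong to the same group and were labelled biological replicates 1 and 2, so no comparison between conditions and no test was possible. Whole embryos mix all cell types, and a gene bound in few cells cannot be told apart from a gene bound weakly in many.

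A homeobox encodes the homeodomain, a helical DNA-binding fold, and a T-box encodes a different DNA-binding domain. Genes of both families encode transcription factors that assign position along the body and fix the identity of neurons, muscle, epidermis and gut cells, and many are transcribed in few cells of the embryo. Hox proteins set anterior to posterior identity and bind DNA together with cofactors of the TALE class of homeodomain proteins, among them UNC-62 and CEH-20. RNA polymerase II gathers at transcribed genes, often near the start or the end of the transcript, so the summit of an AMA-1 peak marks a point of high polymerase signal.

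The deposited peak lists gave 30000 peaks for each replicate and 30000 for both replicates pooled, plus 476 peaks kept after thresholding by the irreproducible discovery rate (IDR). A gene was counted when its window, from 500 bp upstream to 500 bp beyond its end, held a summit. Peaks are described by their rank within a list, 1 being the highest, and by the authors' signal value. That value has no stated scale, and the 5000th peak stood at 24.5 in the pooled list, 18.6 in replicate 1 and 9.33 in replicate 2.

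Sequences around the summits that carry the results are shown from the RefSeq ce11 assembly, 5′ to 3′ on the gene's strand. Capitals mark matches to 6 short motifs searched on both strands: the splice acceptor TTTCAG, the polyadenylation signal AATAAA, the TATA-box core TATAAA, the purine repeat GAGAG, the homeodomain core TAATTA, which is its own reverse complement, and the T-box element TCACACC. The unc-62 stretch, at chrV:4507865-4507894 on the plus strand, lies in an annotated 5′ UTR and holds 4 of the 10 GAGAG matches, overlapping ones included, found in the 300 bases around that summit. The stretch between ceh-58 and ceh-57, at chrII:10367297-10367501 on the minus strand, ends at the base before the annotated start of ceh-57. The ceh-43 stretch is chrIII:4446090-4446389 on the minus strand and the zag-1 stretch is chrIV:3859166-3859465 on the plus strand.
unc-62: cCTCTCgttgcttctctattaCTCTCTCTC
ceh-57: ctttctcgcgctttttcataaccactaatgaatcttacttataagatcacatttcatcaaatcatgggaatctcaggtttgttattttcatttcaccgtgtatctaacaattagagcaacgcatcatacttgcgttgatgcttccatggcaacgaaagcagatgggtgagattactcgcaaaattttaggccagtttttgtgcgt
ceh-43: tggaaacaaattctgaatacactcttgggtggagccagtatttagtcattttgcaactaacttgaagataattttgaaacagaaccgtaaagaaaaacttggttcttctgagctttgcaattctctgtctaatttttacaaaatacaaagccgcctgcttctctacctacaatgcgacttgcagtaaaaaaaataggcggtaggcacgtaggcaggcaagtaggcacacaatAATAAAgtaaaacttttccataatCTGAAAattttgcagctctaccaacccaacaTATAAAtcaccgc
zag-1: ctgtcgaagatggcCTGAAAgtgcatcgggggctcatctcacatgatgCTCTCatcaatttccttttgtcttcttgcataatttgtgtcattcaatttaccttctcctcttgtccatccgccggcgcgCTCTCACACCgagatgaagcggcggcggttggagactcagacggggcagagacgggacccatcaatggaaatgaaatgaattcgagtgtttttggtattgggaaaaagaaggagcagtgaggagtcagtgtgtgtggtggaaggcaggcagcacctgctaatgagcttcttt
The ceh-57 stretch held none of the 6 motifs. In the zag-1 stretch a GAGAG match at -22 from the summit overlapped a TCACACC match at -19. Among all 476 IDR summits, 52.7% of the 300-base regions held GAGAG, and among the 5000 highest pooled summits 2.48% held TCACACC and 48% held GAGAG. Every 31-base word of these 4 regions occurred at 1 place in the genome.

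The homeobox and T-box genes carried RNA polymerase II summits about as often as protein-coding genes in general. Of the 109 genes, 4 had an IDR summit, a share of 3.67%, against 2.44% of all protein-coding genes. These were unc-62, ceh-57, ceh-58 and ceh-8, and since ceh-57 and ceh-58 share a summit, they represent 3 summits. Per length the values were 0.571 IDR summits per 100 kb of the genes' merged windows and 0.566 over all protein-coding genes. The comparison per length matters here because the median gene length was 3009 bp in these families and 2027 bp over all genes.

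At lower limits the shares moved together. Among the 1000 highest pooled peaks 5 genes had a summit (4.59%), against 4.94% of all genes, ceh-43 being added. Among the 5000 highest, 18 genes had one (16.5%), against 17.8% of all genes, and in the whole pooled list 58 had one (53.2%), against 49.6%. In replicate 1 the counts were 4 genes among the 1000 highest peaks, 22 among the 5000 highest and 56 in the whole list, where the shares of all genes were 5.06%, 18.0% and 46.6%. In replicate 2 the same limits gave 6, 18 and 76 genes, where the shares of all genes were 4.76%, 18.2% and 61.3%. The widest gap in percentage points was in the whole list of replicate 2, with 69.7% of these genes. Of the 109 genes, 26 had no summit in any of the 3 relaxed lists. That count was not made for all protein-coding genes, so it cannot be read as high or low. The 18 genes with a summit among the 5000 highest pooled peaks had a median length of 4371 bp, against 1899 bp for the 51 genes without a pooled summit.

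**Figure D1:**
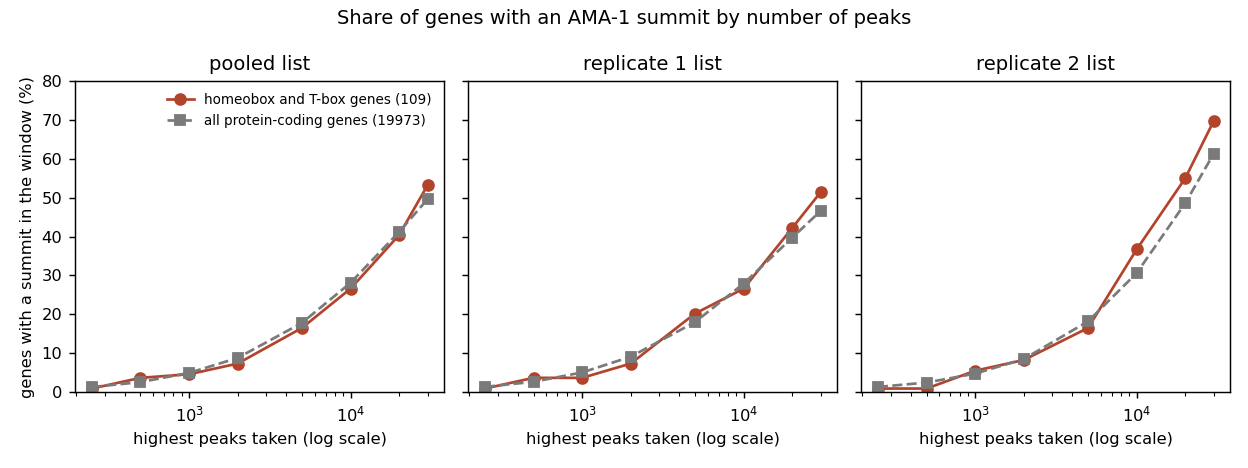
Percent of genes with a summit in their window (vertical axis) by the number of highest peaks taken (horizontal axis, log scale), for the 109 homeobox and T-box genes (red, first in the legend) and all 19973 protein-coding genes (grey), in the pooled list and each replicate. The red and grey lines run close together in all 3 panels, ending in the pooled list at 53.2% and 49.6%.

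The replicates placed different genes high, in these families as over all protein-coding genes. Among the 1000 highest peaks of both replicates were summits of 3 genes, unc-62, ceh-57 and ceh-58, a share of 2.75%, against 1.93% of all genes. Among the 5000 highest peaks of both were summits of 9 genes (8.26%), against 9.39% of all genes. These were ceh-8, ceh-32, ceh-43, ceh-57, ceh-58, ttx-1, unc-62, vab-3 and zag-1. A further 13 genes reached the 5000 highest in replicate 1 alone and 9 in replicate 2 alone, while 78 reached it in neither. Of all protein-coding genes, 18.0% reached it in replicate 1 and 18.2% in replicate 2, but 9.39% in both. Over the 50 genes with a summit in both lists, the ranks of the highest summit had a Spearman rho of 0.39, against 0.38 over the 7832 such genes of the whole genome. These values are a description, since neighbouring genes share summits and both libraries share the same regions. The highest summits of both replicates lay within 250 bp of each other in 10 of the 50 genes (20%), against 29.8% of all genes.

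**Figure D2:**
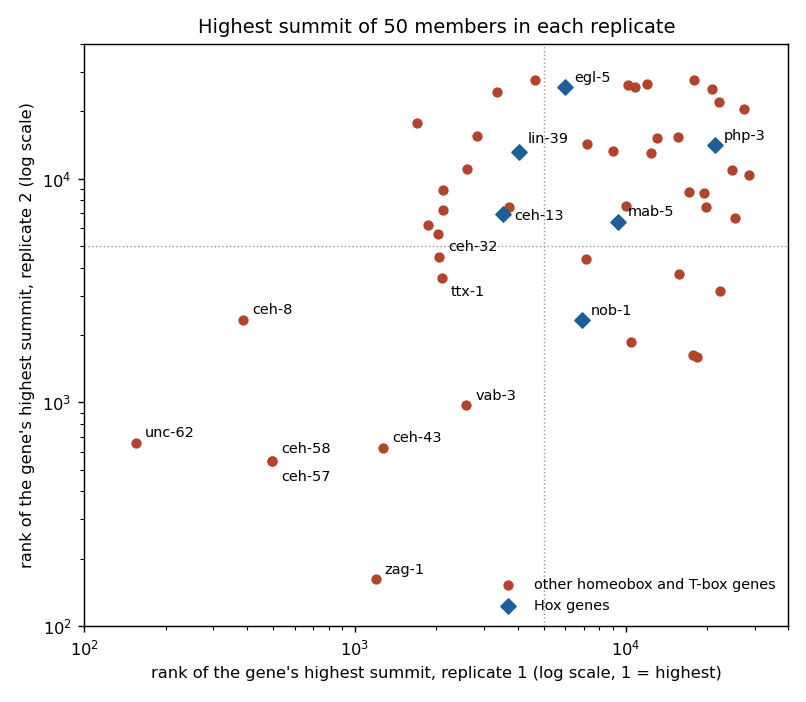
Rank of each gene's highest summit in replicate 1 (horizontal axis, log scale, 1 being the highest) and replicate 2 (vertical axis, log scale), for the 50 genes with a summit in both. Dotted lines mark rank 5000; the 9 labelled genes in the lower left square reached it in both replicates, and none of the 6 Hox genes (blue diamonds) did.

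unc-62 encodes a Meis-type TALE homeodomain protein that acts with Hox proteins, and it held the highest pooled summit of the families. The gene (WBGene00006796) spans chrV:4497461-4511449 on the plus strand. Its IDR peak at chrV:4507793-4508142 had rank 174 and a signal of 69.2 in the pooled list. At that place replicate 1 had a peak of rank 155 with a signal of 61.6, and replicate 2 had one of rank 3199 with a signal of 10.5. The summit lay 10507 bp inside the gene, away from both ends. In 1 of the 18 annotated protein-coding transcripts it fell in the 5′ UTR, 764 bp from that transcript's start, and in the other 17 it fell in an intron. The GAGAG matches printed for unc-62 come from this place.

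unc-62 also held more pooled summits than any other of these genes, 19 in all and 9 among the 5000 highest. Per length it did not stand first, with 1.27 pooled summits per kb of its window, below 1.84 in ceh-38, 1.63 in ceh-43, 1.49 in zag-1 and 1.4 in ceh-58. The second highest pooled summit of unc-62, of rank 1050 and signal 39, lay 9305 bp from the start in an intron. There the replicate ranks were 1654 and 981. The highest unc-62 summit of replicate 2, of rank 661 with a signal of 15.1, lay 7965 bp from the start, and the overlapping peak of replicate 1 ranked 7356. From there to the gene's end both replicates had several summits, in a different order of height. The summit nearest the outermost start, 88 bp inside the gene, ranked only 10708 in the pooled list.

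**Figure D3:**
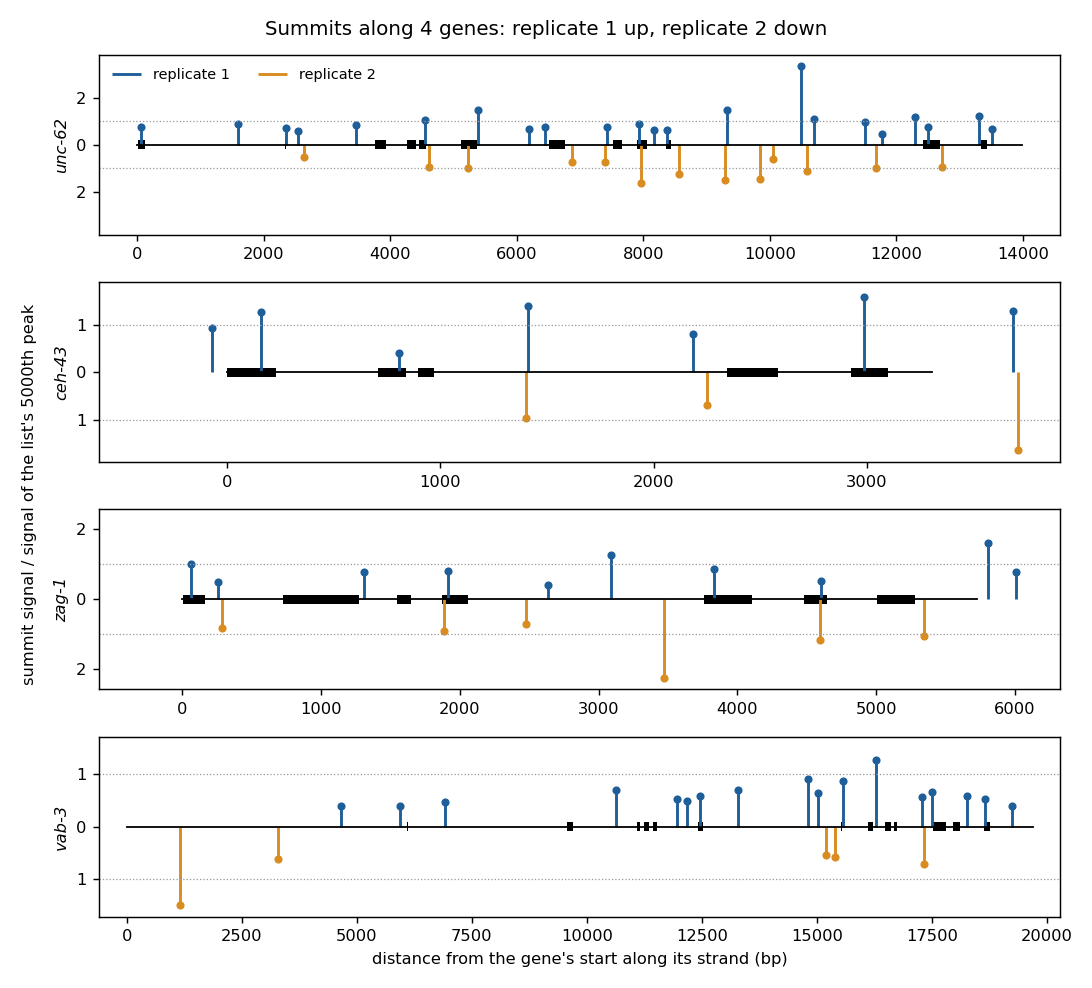
Summits along unc-62, ceh-43, zag-1 and vab-3 by distance from the gene's start (horizontal axis, bp), with replicate 1 drawn upward and replicate 2 downward. Height is the summit's signal divided by the signal of the 5000th peak of its own list, dotted lines mark that peak, and black boxes mark coding exons; in all 4 genes the highest summits of the replicates stand at different places.

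ceh-57 (WBGene00007416) and ceh-58 (WBGene00007417) are neighbouring homeobox genes on the minus strand of chromosome II. Their shared IDR peak, chrII:10367177-10367526, had rank 302 and a signal of 57.2. The summit lay 56 bp upstream of the start of ceh-57 and 389 bp beyond the end of ceh-58. The replicates placed it at rank 494 (signal 39.3) and rank 549 (signal 15.8), the closest agreement in rank among the IDR summits of these families. A second pooled summit of rank 3603 lay 255 bp upstream of ceh-57 and 190 bp beyond ceh-58, and a summit between both genes cannot be assigned to either of them.

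ceh-8 (WBGene00000433) encodes a paired-like homeodomain protein related to vertebrate Rx factors. Its only pooled summit was an IDR summit of rank 313 with a signal of 56.5, 42 bp beyond the gene's end on the minus strand of chromosome I. Replicate 1 had rank 386 there with a signal of 42.8, and replicate 2 had rank 2344 with a signal of 11.4. The summit also lay in the window of col-63 and within 250 bp of the non-coding gene ZK265.11. Of the 4 genes with an IDR summit, unc-62 alone had one that lay in no other protein-coding gene's window.

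Among the Antennapedia-class genes outside the Hox cluster, ceh-43 stood highest. ceh-43 (WBGene00000463, chrIII:4446638-4449943, minus strand) is the Distal-less homologue of the worm, active in head epidermis and neurons. Its pooled summit of rank 862 with a signal of 41.2 lay 398 bp beyond the end. At this summit replicate 1 had rank 2425 with a signal of 24, and replicate 2 had rank 626 with a signal of 15.4. The highest summit of replicate 1 was a different one, of rank 1272 and signal 29.3, in a coding exon 2988 bp from the start, and replicate 2 had no overlapping peak there. ceh-27, an NK-2 type gene, followed with a pooled rank of 1525, 168 bp beyond its end, where replicate 1 had rank 2117 and replicate 2 rank 7674. ceh-63 had pooled rank 2085 in the 5′ UTR of 1 of its 2 transcripts, with rank 1699 in replicate 1 and no overlapping peak in replicate 2, and this summit also lay in the window of tag-52. The class had 3 of 25 genes among the 5000 highest pooled peaks (12%), against 17.8% of all genes.

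zag-1 encodes a zinc finger and homeodomain protein of the ZEB type that represses genes during neuron differentiation. zag-1 (WBGene00006970, chrIV:3855843-3861569, plus strand) had the highest summit of the families in replicate 2, of rank 162 with a signal of 20.9, in an intron 3473 bp from the start. Replicate 1 had no overlapping peak; its nearest summit among the 5000 highest lay 3088 bp from the start at rank 2524. In replicate 1 the highest zag-1 summit had rank 1193 and a signal of 29.9, lay 83 bp beyond the end and fell also in the window of aat-8. Pooling placed the end summit first, at rank 1641, while the pooled summits that overlapped the intron peak ranked 8768 and 20482. The printed zag-1 stretch is the intron region, which thus rests on replicate 2.

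Among the paired-like and Pax genes, 3 of 15 had a summit among the 5000 highest pooled peaks (20%, against 17.8% of all genes), namely ceh-8, ttx-1 and unc-42. ttx-1, the Otx-type gene that specifies the thermosensory neuron AFD, had pooled rank 1723 with its summit 294 bp beyond the end. The replicates agreed on that place, with rank 2096 (signal 25.1) and rank 3584 (signal 10.2). unc-42, a neuronal identity gene, had pooled rank 2117 in an intron 3589 bp from the start, with rank 2830 in replicate 1 and 15587 in replicate 2. vab-3, the Pax-6 gene at chrX:10499890-10519580, reached rank 974 in replicate 2 at 1156 bp from the start and rank 2579 in replicate 1 at 16295 bp from the start, and each summit lacked an overlapping peak in the other replicate. Its highest pooled summit ranked 5399.

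All 6 Hox genes had a pooled summit, against 49.6% of all genes. None stood among the 1000 highest pooled peaks, against 4.94% of all genes, or among the 1000 highest of either replicate. Among the 5000 highest pooled peaks stood 2 of 6 (33.3%), against 17.8% of all genes. ceh-13, the anterior labial-type gene at chrIII:7555660-7558041, had pooled rank 2918 at 89 bp beyond its end. Its highest summit had a signal of 21.1 in replicate 1, 71 bp beyond the end, and a signal of 8.46 in replicate 2, 301 bp from the start. lin-39, which acts in the mid-body and the vulva and lies at chrIII:7528641-7536632, had pooled rank 5720, with 10 summits in replicate 1 and 1 in replicate 2. The highest lin-39 summit of replicate 1 had a signal of 20.1 and lay 334 bp beyond the end, and the summit of replicate 2 had a signal of 6.76 and lay in an intron 4305 bp from the start.

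mab-5, an Antennapedia-type gene of the posterior body at chrIII:7776835-7783454, had pooled rank 11770 in an intron, 2548 bp from the start. The overlapping peaks had a signal of 11.2 in replicate 1 and 8.67 in replicate 2, while the highest mab-5 summit of replicate 1, of signal 14.4, lay at another place, 4715 bp from the start. The posterior Abdominal-B-type genes egl-5, php-3 and nob-1, also on chromosome III, had pooled ranks 18901, 21079 and 4480. egl-5 had 1 summit in each replicate, of signal 17.5 at 407 bp beyond the end in replicate 1 and 4.86 at 123 bp upstream of the start in replicate 2. php-3 had its highest summit at 2101 bp from the start in replicate 1, with a signal of 9.23, and at 3016 bp from the start in replicate 2, with a signal of 6.58. nob-1, the neighbour of php-3, had a summit of signal 11.4 and rank 2334 in an intron in replicate 2, while its highest in replicate 1 had a signal of 16.5 and rank 6897 at another place. The highest pooled nob-1 summit, 5962 bp from the start, had an overlapping peak in both replicates. These peaks had rank 7935 (signal 15.5) in replicate 1 and rank 6047 (signal 8.83) in replicate 2. No Hox gene was among the 5000 highest peaks of both replicates.

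**Figure D4:**
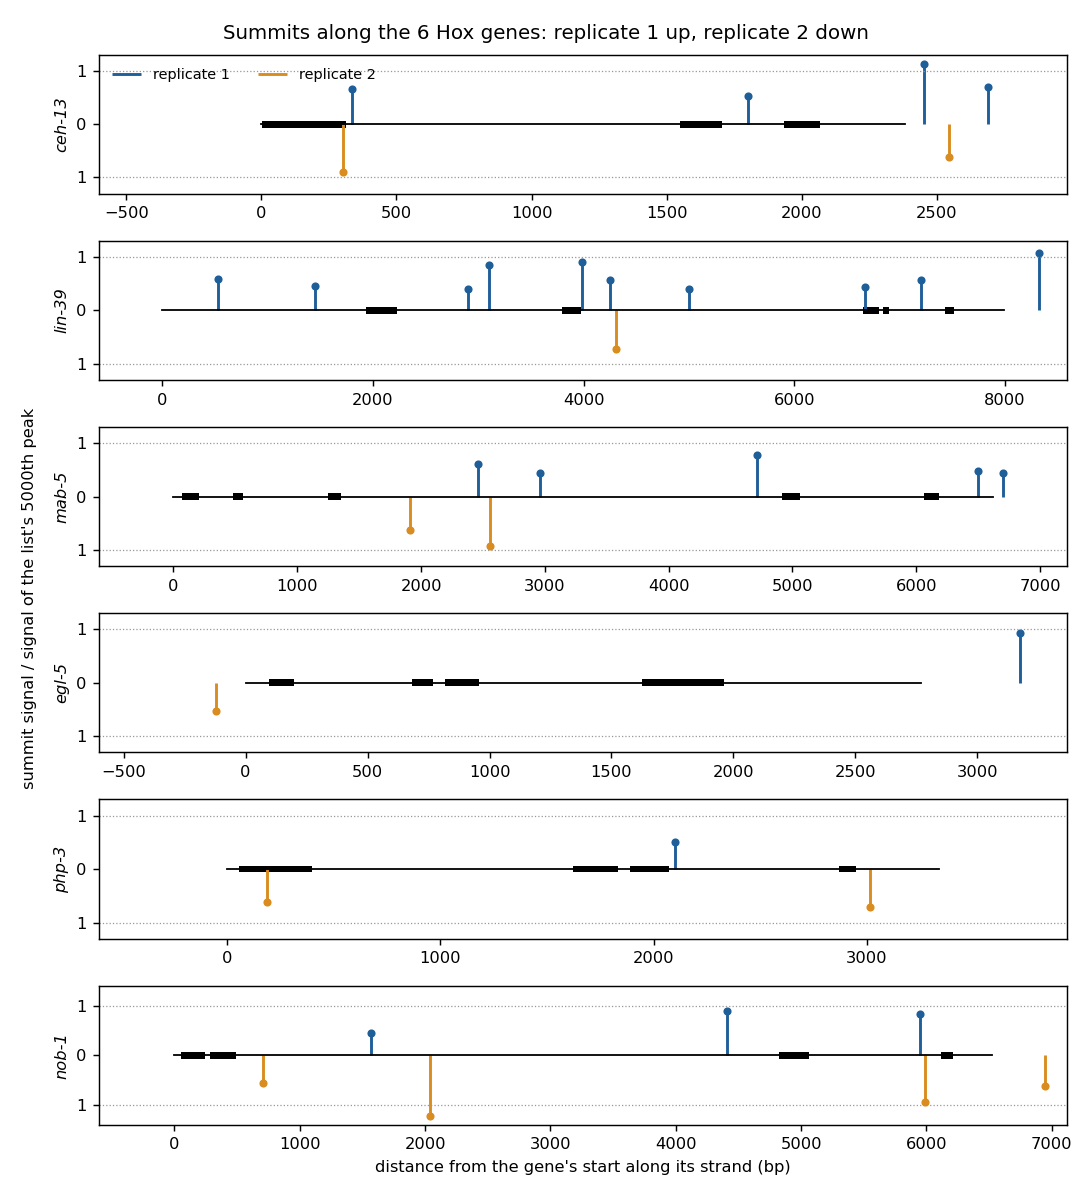
Summits along the 6 Hox genes by distance from the gene's start (horizontal axis, bp; scales differ between panels), with replicate 1 upward and replicate 2 downward. Height is signal over that of the 5000th peak of the same list (dotted lines), and black boxes are coding exons; only ceh-13 and lin-39 in replicate 1 and nob-1 in replicate 2 cross the dotted line.

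The Hox cofactors unc-62 and ceh-20 differed in the height of their highest summit. unc-62 had rank 174 in the pooled list, while ceh-20, the Pbx-type TALE gene, had rank 7179 at 1661 bp from the start, with overlapping peaks of rank 2594 in replicate 1 and 11090 in replicate 2. Their windows differ in length, at 14989 bp for unc-62 and 2902 bp for ceh-20. Per kb of window they held 1.27 and 1.03 pooled summits. A list of 22 chromatin proteins and Wnt pathway members was chosen by name as possible regulators of Hox expression. Whether each of them regulates Hox genes was not tested. Of the 22, 11 genes (50%) were among the 5000 highest pooled peaks, against 17.8% of all genes. Of these 22, 3 had an IDR summit (13.6%), against 2.44% of all genes, and these 3 are named after their values were seen. They were egl-27, a chromatin protein of the MTA type (rank 106), lin-59, an Ash1-type histone methyltransferase (rank 354), and lin-17, a Frizzled receptor (rank 395). The median length of the 22 genes was 4554 bp. Per length they had 22.9 summits of the 5000 highest pooled peaks per 100 kb, against 5.74 for the 6 Hox genes and 6.08 for all genes. The Hox value rests on 2 summits. In the whole pooled list the Hox genes had 60.2 per 100 kb, the 22 genes 82.2 and all genes 35.4. In the whole replicate lists the Hox genes had 68.8, against 35.6 for all genes, in replicate 1 and 31.6, against 33.8, in replicate 2.

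None of the 20 T-box genes was among the 1000 highest pooled peaks, against 4.94% of all genes, or among the 1000 highest of either replicate. Among the 5000 highest pooled peaks was 1 of them (5%), tbx-2, against 17.8% of all genes. tbx-2, needed for pharyngeal muscle, had pooled rank 2148 with a signal of 31.7 in an intron 3552 bp from the start, where replicate 1 had rank 2036 and replicate 2 rank 21505. A second pooled tbx-2 summit of rank 3743 lay in the 3′ UTR. mab-9, which acts in the hindgut, had its highest summits at 3 places, 5905 bp from the start in the pooled list (rank 14728), 7 bp from the start in replicate 1 (rank 25296) and 3849 bp from the start in replicate 2 (rank 6639). In the whole pooled list 6 of 20 T-box genes had a summit (30%), against 49.6% of all genes. The T-box genes were short, with a median length of 1853 bp, and per length they had 22 pooled summits per 100 kb, against 35.4 for all genes. In the whole list of replicate 1, 5 of 20 had a summit (25%), against 46.6% of all genes, or 19 summits per 100 kb, against 35.6. In that of replicate 2, 11 of 20 had one (55%), against 61.3%, or 32.2 summits per 100 kb, against 33.8.

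Of the 6 CUT genes, ceh-38 (pooled rank 2781) and ceh-48 (pooled rank 4006) were among the 5000 highest pooled peaks, a share of 33.3%, against 17.8% of all genes. Per length the CUT genes had 26.4 such summits per 100 kb, against 6.08 over all genes. At this limit they had 13.2 per 100 kb in replicate 1, against 6.14. In replicate 2 they had 1 summit, or 4.41 per 100 kb, against 5.81. The highest ceh-38 summit of replicate 2 ranked 8887, and ceh-48 had none in that list. ceh-38, a ONECUT-type gene, held 5 of the 5000 highest pooled summits. The highest of them lay in the 3′ UTR and also in the window of tra-2. ceh-32, the sine oculis-type gene of head development, had pooled rank 3165 in a coding exon, with rank 2045 in replicate 1 and 4475 in replicate 2. Of the 3 sine oculis-type genes that belong to the 109, it alone was among the 5000 highest (33.3%, against 17.8% of all genes). Per length these 3 genes had 16.4 such summits per 100 kb, against 6.08 over all genes. That value rests on 2 summits, both in ceh-32. At this limit the 3 genes had 24.6 per 100 kb in replicate 1, against 6.14. In replicate 2 they had 8.2, from 1 summit, against 5.81. The next sine oculis-type gene by height, ceh-34, had pooled rank 11612. Of the 6 LIM genes, ceh-14, an Lhx3-type gene, was among the 5000 highest at rank 4566 (16.7%, against 17.8% of all genes), and lim-6, an Lmx-type gene, followed at 5821. At the ceh-14 summit the replicates had ranks 11418 and 13328. None of the 6 LIM genes that belong to the 109 was among the 5000 highest of either replicate. None of the 3 POU genes was among the 5000 highest pooled peaks. Among them unc-86, a regulator of sensory neuron identity, reached rank 1621 in replicate 2 at 146 bp upstream of its start. Replicate 1 had no overlapping peak there. The pooled ranks of unc-86 and ceh-18 were 13192 and 14348. ceh-100 reached pooled rank 4075 in a coding exon, with 13 pooled summits in 21503 bp.

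Of the 30 homeobox and T-box genes on the X chromosome, 2 (6.67%) had a summit among the 5000 highest pooled peaks, ceh-63 and ceh-14, against 12.5% of all protein-coding genes on X. Of the 79 autosomal genes, 16 (20.3%) had one, against 18.6% of all autosomal protein-coding genes. Per length these were 1.26 summits per 100 kb on X and 9.29 on the autosomes, against 4.37 on X and 6.4 on the autosomes over all genes. Without unc-62 the autosomal value was 7.12. In replicate 1 the values were 1.89 on X and 10.4 on the autosomes, against 4.46 and 6.45 over all genes. In replicate 2 they were 1.89 and 5.74, against 4.98 and 5.96. In the whole pooled list 46.7% of these X genes had a summit, against 45.9% of all X genes. Per length those were 20.8 and 30.2 summits per 100 kb. These differences were not tested, and the X value of 1.26 rests on 2 summits.

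The highest pooled summit lay within 250 bp of the start in 5 of the 58 genes with one (8.62%), against 20.1% of all genes with one. It lay further inside in an exon in 41.4%, against 21.8%, and in an intron in 22.4%, against 17.1%. Since these genes are longer, the same was taken per length. Among the 5000 highest pooled peaks, zones within 250 bp of a start held 2 summits, or 3.66 per 100 kb, against 10.4 over all genes. In the whole pooled list start zones held 18 summits, or 33 per 100 kb, against 41.1 over all genes, and in that of replicate 2 the values were 34.8 and 39.6. Among the IDR peaks the order was the other way, with 1 summit, or 1.83 per 100 kb, against 1.17. Among the 5000 highest pooled peaks, the inside of the genes held 25 summits, or 6.85 per 100 kb, against 5.06 over all genes. Of these 25 summits, 9 lay in unc-62. At the same limit the inside value was 6.85, against 5, in replicate 1. In replicate 2 the order was the other way, with 4.66, against 5.63. Among the same pooled peaks, zones within 250 bp of an end held 6 summits, or 11 per 100 kb, against 11.8.

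At gene ends the replicates differed. Replicate 1 had 10 summits at the ends of these genes among its 5000 highest peaks, or 18.3 per 100 kb, against 13.5 over all genes. Replicate 2 had 1, or 1.83 per 100 kb, against 5.53 over all genes. At starts both replicates had 3 summits, or 5.49 per 100 kb, against 10.2 in replicate 1 and 8.78 in replicate 2 over all genes. The start counted here is the outermost annotated one, and a gene with several transcripts has others further inside.

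**Figure D5:**
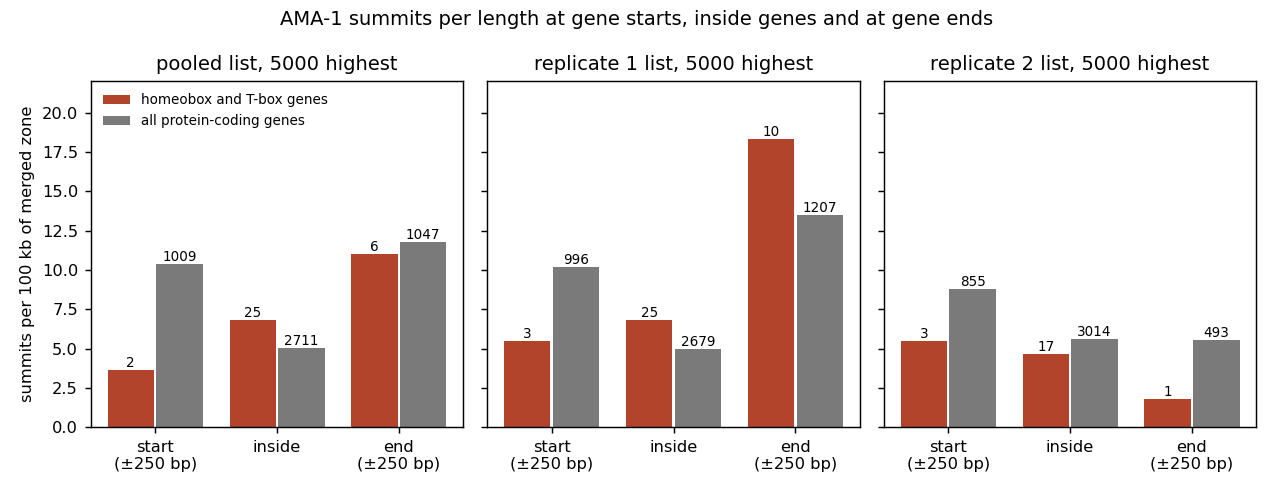
Summits per 100 kb (vertical axis) among the 5000 highest peaks of each list, in zones within 250 bp of a start, inside genes and within 250 bp of an end, for the homeobox and T-box genes (red) and all protein-coding genes (grey). Numbers above the bars are summit counts; at ends the red bars are 18.3 in replicate 1 and 1.83 in replicate 2.

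Sequence at the summits varied among the genes. The 36 summits in these windows that were among the 5000 highest pooled ones had a median GC content of 40.2% over 300 bases. GAGAG was present in 14 of the 36 regions (38.9%), against 48% of the 5000 highest pooled summits, and TTTCAG in 18 (50%), against 43%. TAATTA was present in 4 (11.1%), against 9.28%, and TCACACC in 3 (8.33%), against 2.48%. AATAAA was present in 10 (27.8%), against 40.7%, and TATAAA in 8 (22.2%), against 19.9%. Such a match describes the letters in a region and marks no binding site.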

How the data were processed

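AMA-1 ChIP-seq was measured in 2 replicates of 1 group, per the labels. A note deposited by the authors says that each relaxed list came from 1 replicate's alignments plus 1 further file, the pooled list from both sets of alignments, and the IDR list from all 3 lists. It does not say whether the further file is a control, and no control was analysed here. Aligner, peak caller, IDR threshold and read numbers: not given in the sources used here. Depth is therefore unknown and no interval could be given. Each peak carries a signal value as deposited by the authors, used to rank peaks within a list, and a summit position.

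The ce11 lists were used with Ensembl release 115 genes, and every peak ended inside the chromosome lengths of that assembly. All 476 IDR peaks were the 476 highest pooled peaks by position. The usual peak width was 360 bp in replicate 1, 340 bp in replicate 2 and 350 bp otherwise. Coordinates are 1-based. Summits were assigned to every protein-coding gene whose window held them, so neighbours can share one. Peaks of both replicates were matched by an overlap of at least 1 bp. Densities divide summits by the merged length of the windows. Counts were checked on simulated summits at known places. Python 3.11.15, numpy 2.4.6, pandas 2.3.3, scipy 1.17.1 and matplotlib 3.10.9 were used.

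The genes named are those with an IDR summit or with a summit among the 1000 highest peaks of both replicates, the 20 with the highest pooled summit, the 6 Hox genes and the 2 of each class with the highest pooled summit. Genes outside this rule are said to be named after their values were seen, except where a complete count is spelled out or a summit is shared with a neighbour. The genes, classes and lists were chosen with earlier results of these data known. Alternatives were other windows, other numbers of peaks, other distances and each replicate alone.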

Additional observations from a re-analysis of the deposited data

How the results depend on the processing

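The count of 4 genes with an IDR summit became 1 within gene bodies, 1 within 250 bp of a start, 2 from 500 bp upstream to the end, 1 with each summit given to the nearest start and 1 with the higher part of the IDR list, and 1 to 2 with the same number of peaks from a single replicate. It was 4 with 1000 bp on both sides and 5 with double the number of pooled peaks. Per 100 kb, the IDR value of 0.571 became 0.238 in gene bodies, 0.762 with double the number of peaks and 0.19 to 0.381 with a single replicate. The count of 9 genes among the 5000 highest peaks of both replicates became 5 at 2000 peaks, 18 at 10000 peaks and 4 in gene bodies. It was 7 where summits had to lie within 250 bp of each other, and 18 to 22 with a single replicate. The count of 5 genes among the 1000 highest pooled peaks became 1 in gene bodies, 1 within 250 bp of a start and 4 to 6 with a single replicate. The share of 8.62% with the highest summit near the start became 1.72% within 100 bp, 12.1% within 500 bp and 8.93 to 14.5% with a single replicate. The 5000 highest pooled peaks gave 6.86 summits per 100 kb and 5.29 without unc-62, an alternative chosen after seeing the data. Narrower windows leave out the summits beyond gene ends by construction, and fewer peaks leave fewer summits. No paired analysis was possible because the samples form 1 group. Depth is unknown, and a gene without a summit may be bound below the limit of the lists.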

Other observations

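High summits were also found at homeobox genes that the name rule leaves out. Of 14 such homeobox and T-box genes, 7 had a summit among the 5000 highest pooled peaks (50%), against 16.5% of the 109 genes described above and 17.8% of all protein-coding genes. None of the 14 had an IDR summit. They are named here after their values were seen: pros-1, a Prospero-type gene, had pooled rank 655 with its summit 210 bp beyond the end, zfh-2, a zinc finger homeobox gene, had rank 1051, and nsy-7 had rank 1250. irx-1, an Iroquois-type gene, duxl-1, dve-1 and lim-7 had ranks of 2711, 3466, 3622 and 3892. Per length the 14 genes had 11.7 summits per 100 kb, against 6.86 for the 109 genes. For other transcription factors with roles in the embryo 19 of 65 genes (29.2%) had such a summit, and for nuclear hormone receptors 27 of 275 (9.82%). These differences were not tested.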
